A study of Mus musculus with 8 samples.

Results

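The 10 genes described here are BMP and FGF signals of the hair cycle: Bmp2, Bmp4, Bmp6, Bmp7, Bambi, Fgf5, Fgf7, Fgf10, Fgf18 and Fgf22. They were found on the array as the probes whose RefSeq accession maps to these symbols, 10 of 20128 genes with a symbol on it. Skin RNA of 8 C57BL/6N mouse samples was hybridised, 1 array each, in a study of mice whose Cchcr1 gene, which encodes a coiled-coil protein, had been edited as a model of patchy hair loss. Cchcr1 mutants gave hair loss skin (n = 2) and normal skin (n = 4), and wild type mice gave normal skin (n = 2). The labels give no allele, age, sex or treatment for any group, and they do not say which samples came from separate animals, so the p-values measure the spread between these samples only, which may be technical. The titles begin with Mutant097 (hair loss replicate 1, mutant normal skin replicates 1 and 2), Mutant113 (hair loss replicate 2, mutant normal skin replicates 3 and 4) or Wild001 (both wild type samples), and genotype and Wild001 cannot be told apart. Of the 10 genes, 9 were well above background on at least 2 arrays and were tested. Fgf18 was lower in hair loss skin than in wild type skin and was the member that passed the threshold. Fgf22 had a higher level in every mutant sample than in either wild type sample without passing it. Fgf5 was detected in 5 of the 6 mutant samples and in neither wild type sample, also without passing it. Of the 4 BMP ligands tested none was called, and their group differences lay between -0.55 and 0.30 on the log2 scale.

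Hair follicles pass through growth (anagen), regression (catagen) and rest (telogen). BMP ligands signal through paired serine-threonine kinase receptors to SMAD proteins and hold follicle stem cells at rest, while several FGF ligands, acting on tyrosine kinase receptors, start, sustain or end growth. Bmp6 and Fgf18 are known as products of the resting stem cell niche, Fgf7 and Fgf10 as growth-promoting products of the dermal papilla, and Fgf5 as the signal of the growing follicle that brings on regression, whose loss gives long-haired (angora) mice.

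Upstream sequences are shown for the 4 ligands whose measured values in both mutant groups lay wholly above or wholly below the wild type (for Fgf5, values at background included), so that the genes with a shared direction can be read side by side. They are the 250 bases before the RefSeq gene start in mouse assembly GRCm38.p6, written 5′ to 3′ on the strand of the gene, with capitals marking any match to the motifs below. Fgf5 and Fgf22 were the pair with higher levels in mutants, and Fgf18 and Fgf7 the pair with lower levels. Such separation from wild type was common, at 53.2% of all probes for hair loss and 28.3% for mutant normal skin. The share for both mutant groups together was not counted, so the choice only selects windows to show. The Fgf5 window is chr5:98253934-98254183 on the plus strand, that of Fgf22 chr10:79754859-79755108 on the plus strand, that of Fgf18 chr11:33147401-33147650 on the minus strand, and that of Fgf7 chr2:126034408-126034657 on the plus strand.
Fgf5: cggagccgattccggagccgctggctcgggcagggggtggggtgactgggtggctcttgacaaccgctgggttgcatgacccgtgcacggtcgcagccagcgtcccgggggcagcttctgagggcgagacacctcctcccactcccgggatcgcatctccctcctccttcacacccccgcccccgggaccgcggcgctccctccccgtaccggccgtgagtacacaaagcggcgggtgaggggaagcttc
Fgf22: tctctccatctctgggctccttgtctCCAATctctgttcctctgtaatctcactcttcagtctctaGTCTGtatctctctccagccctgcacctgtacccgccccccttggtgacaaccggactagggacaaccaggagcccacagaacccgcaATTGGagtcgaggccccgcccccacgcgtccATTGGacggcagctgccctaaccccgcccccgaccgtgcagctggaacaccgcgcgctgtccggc
Fgf18: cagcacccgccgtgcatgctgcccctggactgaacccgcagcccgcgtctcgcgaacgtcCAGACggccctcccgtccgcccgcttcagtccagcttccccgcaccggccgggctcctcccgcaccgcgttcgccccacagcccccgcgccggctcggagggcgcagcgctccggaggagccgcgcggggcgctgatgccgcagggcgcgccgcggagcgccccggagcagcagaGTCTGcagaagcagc
Fgf7: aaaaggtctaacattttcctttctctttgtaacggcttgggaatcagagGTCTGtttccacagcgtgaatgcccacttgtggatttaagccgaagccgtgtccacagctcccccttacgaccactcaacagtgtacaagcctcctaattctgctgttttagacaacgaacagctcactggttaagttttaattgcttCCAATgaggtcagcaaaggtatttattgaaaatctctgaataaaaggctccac

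The motifs searched on both strands were the TATA box (TATAAA), the CCAAT box (CCAAT), the core of the TCF/LEF site (CTTTGA) and the SMAD box (CAGAC). Among the 32851 mouse promoter windows of the same length, 12.4% held the TATA box, 33.8% the CCAAT box, 13.8% the TCF/LEF core and 42.2% the SMAD box. The Fgf22 window held 3 CCAAT boxes and 1 SMAD box, the Fgf18 window 2 SMAD boxes, the Fgf7 window 1 CCAAT box and 1 SMAD box, and the Fgf5 window 0 of the 4 motifs. GC content was 70.8% for Fgf5, 62.4% for Fgf22, 77.2% for Fgf18 and 43.6% for Fgf7, against a median of 52.4% over all windows (quartiles 45.2% and 61.2%). Each match describes letters in a window, not a bound site, and a window with no match says nothing of the factor.

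Array brightness varied, with a 75th percentile of the processed intensity of 83.2 to 211.6 and 25421 to 30205 probes well above background per array. Levels below are log2 values relative to the 75th percentile of the same array, so 0 is that percentile, and levels of different probes are not set against each other. The list of 8 epidermal markers was well above background on every array. The Cchcr1 probe was above background on all 8 arrays, with levels from -0.07 to 0.49, and where it lies relative to the edit is not given in the sources used here, so it does not check the genotype labels. Xist, transcribed from the inactive X chromosome of females, was above background on 3 arrays, those of Mutant113, and the Y-linked Ddx3y and Eif2s3y on the other 5. Sex markers thus coincide with the title number. All arrays were on 1 slide. Row 1 of it carried the hair loss pair with the Mutant097 normal samples, and row 2 the Mutant113 normal samples with the wild type. With the row as a block, mutant normal skin was compared with wild type within row 2 only and hair loss with mutant normal skin within row 1 only. No row held both hair loss and wild type, so their difference in this fit was the sum of these within-row differences. The row term is the difference between Mutant113 and Mutant097 normal skin and cannot be told apart from title number. Within row 2 the wild type had the Y-linked genes and the mutants Xist, so genotype and sex markers coincide there.

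Hair loss skin was compared with wild type skin first, since it is the contrast between an affected mutant and an unaffected control. Of the 9 members tested, 1 was called, Fgf18, at an adjusted p under 0.05 from limma (a linear model with a spread shared across probes), where 1.41% of the 30417 probes were called. The 2 groups did not overlap for 6 of the 9 members, against 53.2% of all probes: Bmp2, Fgf5 and Fgf22 were higher in both hair loss samples, and Bmp4, Fgf7 and Fgf18 lower. Overlap was counted on measured values, those at background included. The members' median difference was -0.23, beside -0.06 over all probes. The share without overlap was near that of the array as a whole.

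Normal skin of mutants was compared with wild type to ask what differs outside the lesions. Of the 9 members, 0 were called by limma, where 0.687% of probes were called, and 2 of them, Fgf5 and Fgf22, had an unadjusted p under 0.05, as did 5240 probes. The groups did not overlap for 4 of the 9 members, Fgf22 (higher in 4 of 4 mutant samples), Fgf7 and Fgf18 (lower in 4 of 4) and Fgf5, against 28.3% of all probes. Fgf5 was detected on 3 of the 4 mutant arrays, and the fourth has no order against the wild type, where it was not detected. The median difference of the members was 0.24, beside -0.04 over all probes.

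Lesional and unaffected skin of the same mutant genotype were then compared to ask what accompanies the lesion. No member was called, and 0% of the 30417 probes were called by limma, with 1580 at an unadjusted p under 0.05. Of the members, 1 had an unadjusted p under 0.05, Fgf18. The groups did not overlap for 3 of the 9 members, Bmp4, Bmp6 and Fgf18, all lower in hair loss, against 12.4% of all probes. The comparisons with wild type share the wild type samples, and the comparisons with mutant normal skin share its 4 samples, so their values are not independent of each other.

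**Figure D1:**
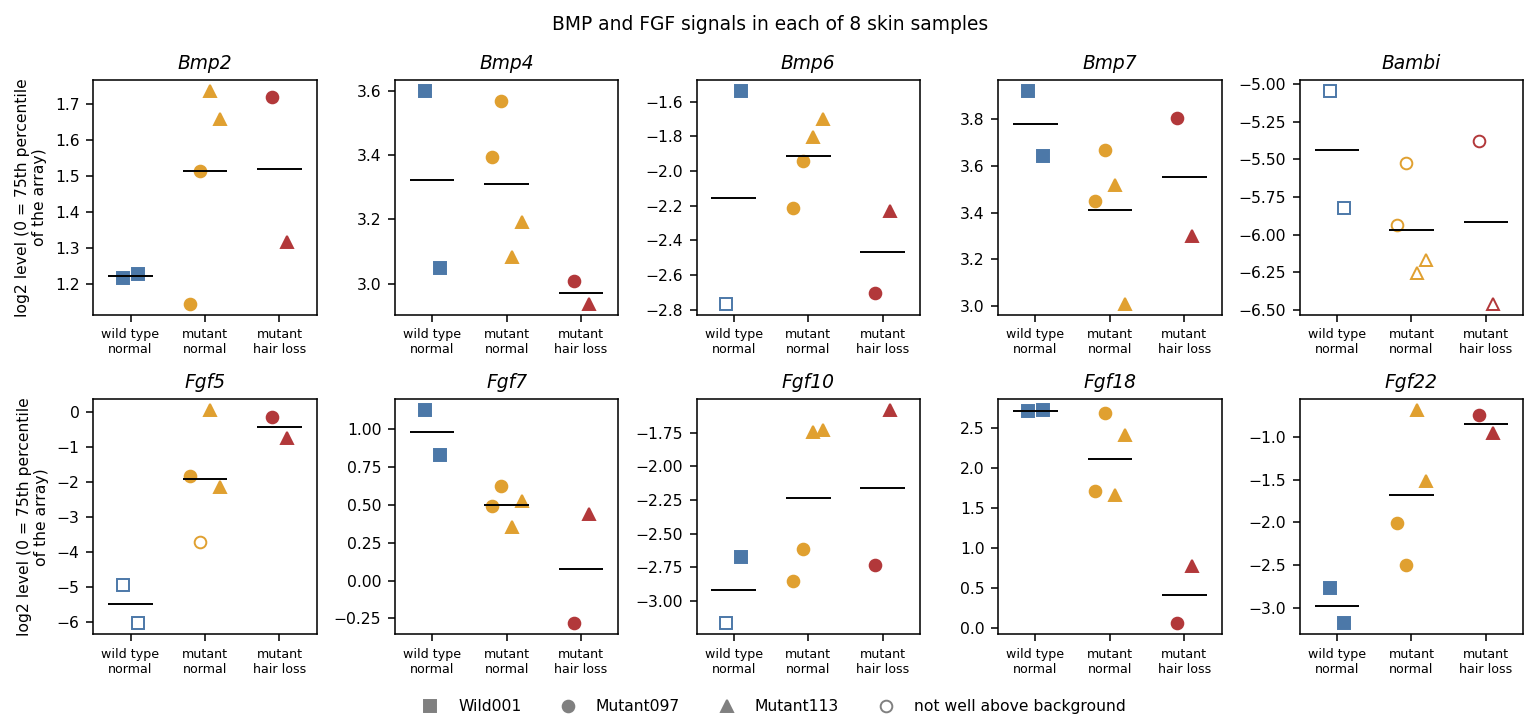
Log2 level of each of the 10 genes (y axis, 0 being the 75th percentile of the array; each panel has its own range) in the 8 skin samples by group; marker shape gives the title number, open symbols are probes not well above background and lines are group means. Fgf18 lies between 0.05 and 0.77 in hair loss and at 2.70 and 2.72 in wild type, and Bambi is open on every array.

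Among the BMP ligands, Bmp2 and Bmp4 are known as dermal and follicular signals that keep resting skin refractory to growth cues. The Bmp2 level was 1.72 and 1.32 in hair loss (replicates 1 and 2, the order used throughout), 1.14, 1.51, 1.74 and 1.66 in mutant normal skin (in replicate order), and 1.22 and 1.23 in the wild type. The highest and the lowest of the 8 Bmp2 values were both from mutant normal skin. Bmp2 exceeded wild type by 0.30 in hair loss (SE 0.25, limma adjusted p 0.490) and by 0.29 in mutant normal skin (SE 0.22, limma adjusted p 0.528), neither beyond the spread between samples.

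The Bmp4 level was 3.01 and 2.94 in hair loss, 3.40, 3.57, 3.08 and 3.19 in the mutant normal samples and 3.60 and 3.05 in the wild type. Hair loss held the lowest pair of values, while the other groups overlapped fully. Bmp4 differed from wild type by -0.35 in hair loss (SE 0.26, limma adjusted p 0.420) and by -0.01 in mutant normal skin (SE 0.22, limma adjusted p 0.981). A second Bmp4 probe (A_55_P1959022) was above background on no array and measured nothing about these groups.

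Bmp6, a ligand of the resting bulge niche, was dim. Its level was -2.70 and -2.23 in hair loss, -2.21, -1.94, -1.81 and -1.70 in the mutant normal samples, and -2.77 (not well above background) and -1.54 in the wild type. The wild type pair spanned all the other samples, so no order of the groups could be read. Its level in hair loss minus that in the mutant normal samples was -0.55 (SE 0.35, limma adjusted p 0.999).

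Bmp7, an epithelial and mesenchymal BMP of the follicle, ran from 3.01 to 3.92 over the 8 arrays. Its level was 3.81 and 3.30 in hair loss, 3.45, 3.67, 3.52 and 3.01 in the mutant normal samples and 3.92 and 3.64 in the wild type. The groups overlapped. Bmp7 differed from wild type by -0.23 in hair loss (SE 0.28) and by -0.37 in mutant normal skin (SE 0.25), with limma adjusted p of 0.639 and 0.472.

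Bambi, a pseudoreceptor that lacks the kinase domain and dampens BMP and TGF-beta signalling, was not well above background on any of the 8 arrays. Its measured values, from -6.46 to -5.05, give a bound and no order of the groups.

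Fgf18, a ligand of the resting follicle, was the only member called, lower in hair loss than in wild type. Its level was 0.05 and 0.77 in hair loss, 1.71, 2.68, 1.65 and 2.40 in the mutant normal samples and 2.70 and 2.72 in the wild type. Every hair loss value lay below every mutant normal value, and those in turn below both wild type values, although mutant normal skin replicate 2 was close to the wild type pair. Hair loss averaged 0.41 ± 0.51 (SD, n = 2), mutant normal skin 2.11 ± 0.51 (SD, n = 4) and the wild type 2.71 ± 0.01 (SD, n = 2).

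Fgf18 fell by 2.30 on the log2 scale in hair loss against wild type, a 4.92-fold difference (SE 0.40, limma adjusted p 0.045). Against mutant normal skin it differed by -1.70 (SE 0.35, limma adjusted p 0.714). The mutant normal samples differed from wild type by -0.60 (SE 0.35, limma adjusted p 0.416). The second Fgf18 probe (A_55_P1976356) gave -2.22 for hair loss against wild type, with an adjusted p of 0.053, which misses the threshold. The call against wild type was also lost with leave-one-out fits: without hair loss replicate 1 the difference was -1.94 (adjusted p 0.202), without wild type replicate 1 it was -2.305 (0.197), and without wild type replicate 2 it was -2.29 (0.081). Leaving out mutant normal skin replicate 1 or 4, which enter only the shared spread, kept the difference at -2.30 with adjusted p of 0.052 and 0.063. With 1 mean per group and title number the difference stayed at -2.30, with the wild type reduced to 1 value. With the slide row as a block it was -2.46 (limma adjusted p 0.076). The direction was the same in each of these fits and the call was not kept. Within row 1, hair loss differed from the normal skin of Mutant097 by -1.78 (limma adjusted p 0.246).

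Fgf5, the growth-ending signal made by the outer root sheath of growing follicles, was detected in mutant samples only. Its level was -0.14 and -0.73 in hair loss, and -1.84, -3.72 (not well above background), 0.06 and -2.14 in mutant normal skin. It was not well above background in either wild type sample, where the values were -4.93 and -6.03. The values not well above background have no order among themselves, so mutant normal skin replicate 2 cannot be placed against the wild type. Mutant normal skin replicate 3 was as high as hair loss.

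Set against a floor, the smallest detected probe value of each wild type array, Fgf5 was 7.67-fold higher in hair loss and 2.76-fold higher in mutant normal skin. These folds are approximate bounds, since a probe above the floor can also fail detection. On wild type replicate 1 the floor was -3.01, and Bmp6 was not well above background there at -2.77. The second fold also averages in mutant normal skin replicate 2, where Fgf5 was not detected. Leaving out 1 sample at a time put the first bound between 5.93 and 9.91. The second bound was 4.20 without mutant normal skin replicate 2, 1.75 without replicate 3 and between 2.14 and 3.57 without any other sample. Neither was called, with limma adjusted p of 0.060 and 0.134, which rest on wild type values at background. With the slide row as a block, where hair loss and wild type shared no row, the limma adjusted p was 0.035 and 0.055. For hair loss against wild type it was also under the threshold when mutant normal skin replicate 2 (adjusted p 0.034) or replicate 3 (0.018) was left out, or when only those groups were fitted (0.008). With normexp, another background correction, it was 0.142.

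Fgf22, a ligand known from the inner root sheath of the follicle, was above background on all 8 arrays. Its level was -0.75 and -0.96 in hair loss, -2.01, -2.49, -0.69 and -1.51 in the mutant normal samples and -2.76 and -3.17 in the wild type. The wild type pair was the lowest, and mutant normal skin replicate 3 was again level with hair loss. Fgf22 exceeded wild type by 2.11 in hair loss (SE 0.52, limma adjusted p 0.079) and by 1.29 in mutant normal skin (SE 0.45, limma adjusted p 0.221), neither past the threshold. With the slide row as a block these differences were 3.26 (limma adjusted p 0.017) and 1.87 (0.041), both called. The first was not a direct comparison, since no row held both groups. The second used only the Mutant113 normal samples, and those of Mutant097 alone differed from wild type by 0.72 (limma adjusted p 0.312). Without mutant normal skin replicate 3, hair loss against wild type had a limma adjusted p of 0.036, and with only those groups fitted 0.035. With normexp the differences from wild type were 0.73 in hair loss and 0.37 in mutant normal skin.

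Fgf7, also called keratinocyte growth factor, and Fgf10 are dermal ligands that act on the epithelium. The Fgf7 level was -0.28 and 0.44 in hair loss, 0.49, 0.62, 0.35 and 0.52 in the mutant normal samples and 1.12 and 0.83 in the wild type. Each of the 6 mutant samples lay below both wild type samples. Fgf7 differed from wild type by -0.90 in hair loss (SE 0.27, limma adjusted p 0.106) and by -0.48 in mutant normal skin (SE 0.23, limma adjusted p 0.333).

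The 6 dermal fibroblast markers on the array were, like Fgf7, highest in the wild type. Their mean level was 6.33 to 6.56 there, 4.87 to 6.00 in mutant normal skin and 5.27 to 5.42 in hair loss. Within the mutants the order differed. Hair loss replicate 1 had the lowest Fgf7 level (-0.28), but its fibroblast mean (5.42) was above those of mutant normal skin replicates 3 and 4 (4.87 and 5.09). The part of fibroblasts in the Fgf7 difference was not tested.

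The Fgf10 level was -2.73 and -1.58 in hair loss, -2.85, -2.62, -1.75 and -1.73 in the mutant normal samples and -3.17 (not well above background) and -2.67 in the wild type. It divided by title number, with the 3 samples of Mutant113 the highest. In normal skin Fgf10 was 0.996 higher in Mutant113 than in Mutant097 (SE 0.23, limma adjusted p 0.163), not past the threshold. Against wild type it differed by 0.76 in hair loss (SE 0.51) and by 0.68 in mutant normal skin (SE 0.44), with limma adjusted p of 0.384 and 0.467. With normexp these differences were 0.046 and 0.019, and with the slide row as a block 1.76 and 1.18.

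**Figure D2:**
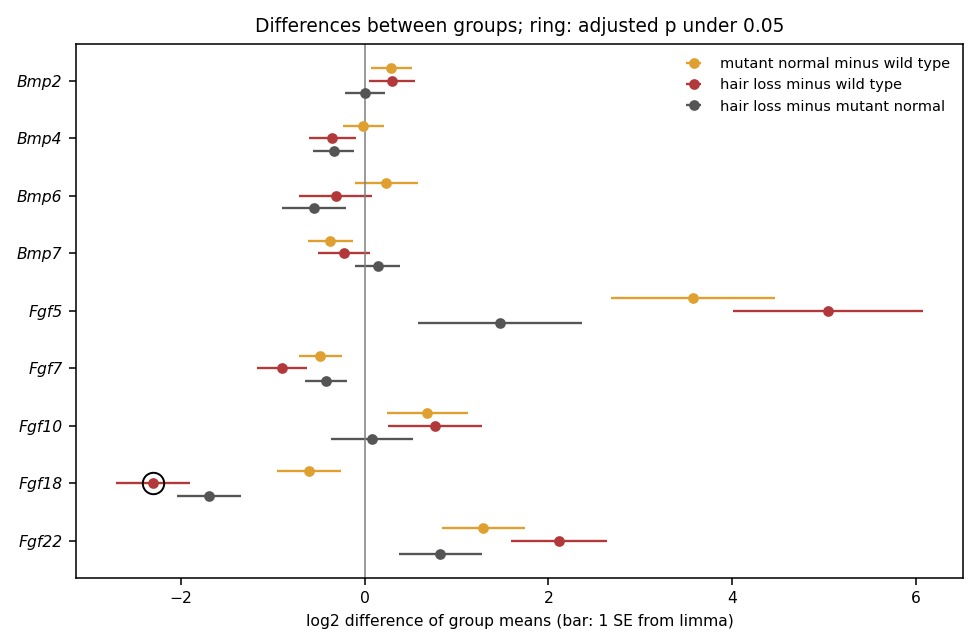
Differences of group means on the log2 scale (x axis) for the 9 genes tested, 1 row per gene and 1 point per comparison, with bars of 1 SE from limma and a ring where the adjusted p was under 0.05. The ring marks Fgf18 in hair loss minus wild type at -2.30, while the points of the BMP ligands lie between -0.55 and 0.30. The Fgf5 points against wild type rest on wild type values at background and show no size.

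Markers of growing follicles, like Fgf22, Fgf18 and Fgf7, set all mutant samples apart from the wild type pair. The 13 such markers on the array (hair and inner root sheath keratins, and regulators such as Hoxc13, Foxn1 and Msx2) had a mean level of 4.498 and 3.25 in hair loss replicates 1 and 2. For the mutant normal samples it was 3.56, 2.28, 3.84 and 3.05, and in the wild type -1.34 and -2.34. The wild type means were the lowest, with 10 and 9 of the 13 markers above background, against 12 to 13 in mutants. Of the 12 tested, 9 were called higher in hair loss and 7 in mutant normal skin, each against wild type. Over all probes 1.41% and 0.687% were called in these comparisons. The marker list was chosen with earlier results of these data known.

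The sample with the highest follicle marker mean among mutant normal skin, replicate 3, also had the highest Fgf5 and Fgf22 levels there, and replicate 2 had the lowest marker mean and Fgf22 level, with Fgf5 not well above background. Hair loss replicate 1 had the highest marker mean of all samples and the lowest Fgf18 and Fgf7 levels. Other mutant samples did not keep this order. Hair loss replicate 2 had a lower marker mean (3.25) than mutant normal skin replicates 1 and 3 (3.56 and 3.84). Its Fgf18 level (0.77) was nevertheless also below theirs (1.71 and 1.65). Mutant normal skin replicate 1 had a higher marker mean than replicate 4 (3.05) but a lower Fgf22 level (-2.01 against -1.52). In bulk skin, fewer cells of a type and less RNA per cell cannot be told apart, and the part of follicle stage or number in the FGF differences was not tested.

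**Figure D3:**
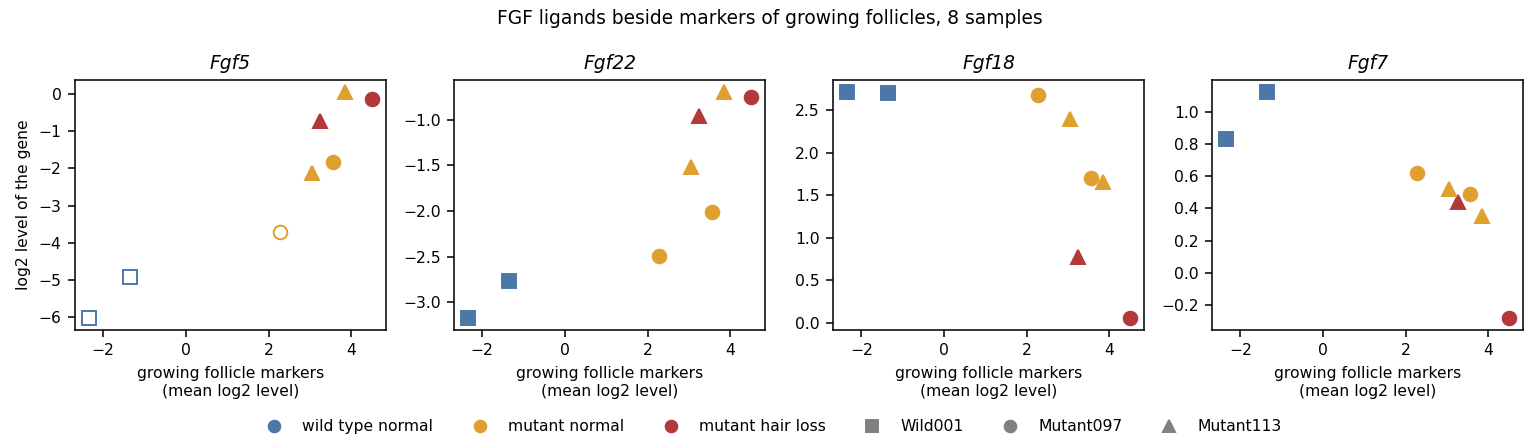
Level of Fgf5, Fgf22, Fgf18 and Fgf7 (y axis, log2 relative to the 75th percentile) against the mean log2 level of 13 growing follicle markers (x axis) in each of the 8 samples; colours are groups, shapes title numbers and open symbols values not well above background. The wild type samples lie apart at marker means of -1.34 and -2.34, and all mutant samples lie at 2.28 or above.

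Markers of the other cells of skin moved less or in other ways. The dermal papilla is a source of Fgf7 and Fgf10, and the mean of its 10 markers was -1.12 to -1.08 in hair loss, -1.25 to -0.39 in mutant normal skin and -1.44 to -1.35 in the wild type, with Sox2 above background on no array. The 8 follicle stem cell markers, of the niche that makes Fgf18 and Bmp6, ran from 3.12 to 3.16 in hair loss, 3.30 to 3.59 in mutant normal skin and 3.35 to 3.39 in the wild type. The hair loss pair lay just below the other samples there.

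Macrophage markers (5 on the array) had means of 1.91 to 2.34 in hair loss, 1.85 to 2.61 in mutant normal skin and 3.05 to 3.27 in the wild type. Skeletal muscle markers (7) ran from 3.44 to 4.79, 4.38 to 6.15 and 6.14 to 6.25 in the same order, and melanocyte markers (7) from 1.47 to 2.11, 0.43 to 2.22 and -0.39 to 0.38. Adipocyte markers (7) stayed between 3.04 and 3.86 on all arrays, and T cell markers (6) between -0.06 and 0.47. The macrophage means of the wild type lay above those of all mutant samples, and its melanocyte, adipocyte and dermal papilla means below them. Fgf7 was highest in the wild type, and Fgf10 levels overlapped between the groups. The part of these cell types in the differences of the 9 members was not tested.

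The title numbers were set side by side next. Within Mutant097 the hair loss sample exceeded the 2 normal samples by 2.64 for Fgf5 (1 of these normal samples being at background) and 1.504 for Fgf22, and within Mutant113 by 0.31 and 0.14. Fgf18 was lower in hair loss within both numbers, differing by -2.14 in Mutant097 and -1.26 in Mutant113. Fgf7 differed by -0.84 in Mutant097 and 0.00 in Mutant113, and Bmp2 by 0.39 and -0.38.

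These pairs of values differ in size, but the test of the difference in lesion effect called 0% of probes (2886 at an unadjusted p under 0.05), and its limma adjusted p was 0.525 for Fgf7, 0.560 for Bmp2, 0.570 for Fgf22, 0.728 for Fgf5 and 0.754 for Fgf18. Each number had 1 hair loss sample, so the effect within a number rests on it. In normal skin, 0.266% of probes were called between Mutant113 and Mutant097, and 0 of the 9 members. Slide row, sex markers and title number coincide in that comparison and cannot be told apart.

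The other genes of both pathways were taken from lists of 46 BMP and 35 FGF genes, of which 41 and 27 were tested. In hair loss against wild type 1 of these 68 was called, higher, and 0 were called lower. That is 1.47%, near the 1.41% of all probes called in that comparison, so the count is no more than the background. In mutant normal skin against wild type, and in hair loss against mutant normal skin, 0 of the 68 were called. The BMP list had a median difference of 0.09 in hair loss and 0.11 in mutant normal skin against wild type, and the FGF list 0.01 and 0.10, beside -0.06 and -0.04 over all probes.

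By role, the 12 BMP antagonists tested had a median difference from wild type of -0.20 in hair loss and -0.18 in mutant normal skin, and the 12 BMP receptors and signal transducers 0.12 and 0.11. The 6 other BMP ligands stood at -0.20 and 0.38, opposite in sign. The 11 BMP targets stood at 0.39 and 0.46, with 8 of 11 above 0 in both comparisons. The 6 other FGF ligands had medians of -0.66 and -0.39, the 9 FGF receptors and cofactors 0.06 and 0.04, and the 12 FGF targets and feedback genes 0.32 and 0.18.

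The called gene was Msx2, a homeobox target of BMP signalling that is itself a regulator of the growing hair shaft and belongs to the follicle marker list above. Its level was 3.41 and 1.95 in hair loss, 2.86, 1.498, 2.49 and 1.79 in the mutant normal samples and -0.58 and -0.74 in the wild type. All 6 mutant samples lay far above the wild type pair. Msx2 exceeded wild type by 3.34 in hair loss (SE 0.56, limma adjusted p 0.040) and by 2.82 in mutant normal skin (SE 0.49, limma adjusted p 0.057). The first call was lost without hair loss replicate 1 (difference 2.61, adjusted p 0.169), mutant normal skin replicate 4 (3.34, 0.058), wild type replicate 1 (3.42, 0.181) or wild type replicate 2 (3.26, 0.081), and with the slide row as a block (3.30, 0.090).

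The other BMP pathway genes named, selected for a high mean signal with no order of abundance implied, were Fstl1 (follistatin-like 1, a secreted glycoprotein that binds BMPs), Bmp1 (a procollagen protease rather than a BMP ligand) and Gata3 (a transcription factor of the inner root sheath). Fstl1 was 5.67 and 5.37 in hair loss, 6.16, 6.17, 5.0 and 5.10 in the mutant normal samples and 7.02 and 6.93 in the wild type. Every mutant sample was lower than the wild type pair, by -1.45 in hair loss (SE 0.44, limma adjusted p 0.111) and -1.37 in mutant normal skin (SE 0.38, limma adjusted p 0.162). With the slide row as a block these differences were -2.57 (limma adjusted p 0.006) and -1.92 (0.005), both called. The first was not a direct comparison, since no row held both groups. The second used only the Mutant113 normal samples, and those of Mutant097 alone differed from wild type by -0.81 (limma adjusted p 0.090). The dermal fibroblast marker means ranked the samples in the same order as Fstl1. The part of fibroblasts in the Fstl1 difference was not tested. Bmp1 differed from wild type by -0.72 and -0.63 in hair loss and mutant normal skin, and Gata3 by 0.39 and 0.46, and neither was called.

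The FGF pathway genes named by the same selection were the receptors Fgfr1 and Fgfr3 and the feedback phosphatase Dusp6, which inactivates ERK. Dusp6 was 4.39 and 3.45 in hair loss, 3.76, 3.63, 3.81 and 3.45 in the mutant normal samples and 2.48 and 2.81 in the wild type, so every mutant sample exceeded both wild type samples. Its difference from wild type was 1.28 in hair loss (SE 0.32, limma adjusted p 0.081) and 1.02 in mutant normal skin (SE 0.28, limma adjusted p 0.152). Fgfr3 differed by 0.34 and 0.48, and Fgfr1 by -1.62 and -0.29, none of them called. The Fgfr1 level was 2.09 in hair loss replicate 1 and 4.37 in replicate 2. Without replicate 1 its difference in hair loss was -0.48.

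Bmpr1b, a type I BMP receptor, was named after its values were seen because it was the 1 pathway gene called between the title numbers in normal skin. It was above background on both normal skin arrays of Mutant113 (-2.21 and -2.61) and on neither of Mutant097 (-5.25 and -5.02). Against the floor it was 2.44-fold higher, an approximate bound (limma adjusted p 0.033). That p rests on Mutant097 values at background, and a second Bmpr1b probe was above background on no array. In hair loss it was -2.94 in replicate 1 and -3.20 in replicate 2, with only replicate 2 well above background.

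**Figure D4:**
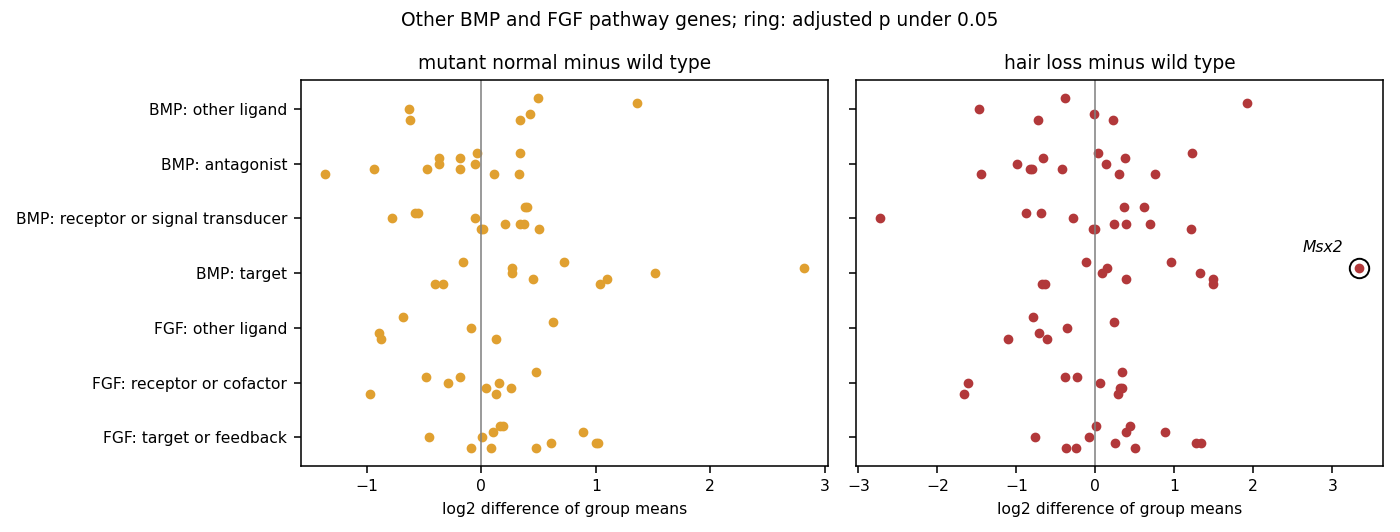
Log2 differences from wild type (x axis) of the 68 other BMP and FGF pathway genes tested, by role (y axis; points are shifted up or down only to be visible), in mutant normal skin (left) and hair loss (right), with a ring where the limma adjusted p was under 0.05. Msx2 at 3.34 in hair loss is the ringed gene, and it is the highest point of that panel.

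The genes with the pattern closest to Fgf5 and Fgf18, the 2 members with the widest range of group means, were ranked by Pearson r of log2 levels over the 8 arrays among 14278 genes. The points share array brightness and the contrast with wild type, and for Fgf5 they include 3 values at background. For Fgf5 the closest were Utp14a (r = 0.993), H2al1m (r = 0.992) and Lman1l (r = 0.990). Utp14a, a gene of ribosomal RNA processing, ran only from -2.66 to -2.21, whereas H2al1m and Lman1l, like Fgf5, were above background on 5 of 8 arrays. For Fgf18 the closest were P2rx2, an ATP-gated ion channel (r = 0.983), Adamtsl4 (r = 0.974) and Tsc22d3, a glucocorticoid-induced leucine zipper gene (r = 0.973). Tsc22d3 was 3.84 and 4.18 in hair loss, 4.47 to 4.93 in the mutant normal samples and 4.93 and 5.05 in the wild type, so the hair loss pair was lowest there as well.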

How the data were processed

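RNA of 8 skin samples was measured on single-colour Agilent 8x60K arrays. Per the file headers, the deposited intensity of each spot was background-corrected by Feature Extraction (version 11.5.1.1 per the submitters' processing notes), which also marked spots as above background, saturated or outliers. The deposited matrix of the authors holds log2 values, which lay within 0.01 of 1 constant per array of the log2 processed intensity for all 55603 probes. Column medians of that matrix ran from -3.68 to -3.20, so it is centred near the 75th percentile of each array, not on the median.

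Here, flagged spots (118 to 210 per array, 0 saturated) were left out, spots of a probe were averaged, and the 75th percentile of each array was subtracted. The 78 probes with no usable spot on some array were dropped. A probe was tested if well above background on at least 2 arrays, which left 30417, of them 19195 with a symbol from a RefSeq table, for 14774 genes. Probe positions are not given, since the files and the RefSeq table use different assemblies. Of several probes for a gene, the one with the highest mean was used. Where every array of the lower group failed detection, the fold is an approximate bound, the mean of the higher group set against a floor. The floor was averaged over the lower group, each array's being its smallest detected probe value or the probe's own, whichever was larger. A probe above the floor can also fail detection, so the fold is not a strict minimum.

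Comparisons used limma 3.58.1 (R 4.3.3) fitted to all 8 arrays (5 residual and 2.71 prior degrees of freedom; 3 and 2.51 for the fit of group by title number), two-sided, with Benjamini-Hochberg adjustment over all probes tested. The script was run on simulated data with independent samples, which does not address shared animals, slide row or values at background. The number of arrays limits the precision. The members and gene lists were chosen with earlier results of these data known. The genes named were the 10 members, called pathway genes, the 3 pathway genes per list with the highest mean, and the 3 genes closest to 2 members. Alternatives covered normexp background correction (on median signals, chosen after seeing the data, as mean signals were not used here), quantile normalization, the deposited matrix, the filter, slide row, title number and each sample left out. Upstream sequences were matched by symbol for 7 of the 10 members.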

Additional observations from a re-analysis of the deposited data

How the results depend on the processing

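Of 471 alternative values for the members' differences, 433 kept direction and side of the threshold, 9 lost a call, 8 gained one and 21 changed sign. None of the sign changes was in Fgf5, Fgf18 or Fgf22. Several settings could change only the adjusted p, not the difference, so the 433 do not measure its stability. These were the filters, the fit of only the 2 groups, means per number and leaving out a sample of the third group. The deposited matrix changed differences only slightly. Members called in hair loss against wild type numbered 1 in the main setting, 3 with only the 2 groups compared, 2 with the slide row as a block (Fgf5 and Fgf22, not Fgf18), 0 with no filter and 0 with 1 mean per group and title number, and 0 to 3 when 1 sample was left out. In mutant normal skin against wild type 1 was called with the row as a block. Pathway genes called in hair loss against wild type were 4 with normexp, 0 with no filter, 3 with probes above background on all 8 arrays, 3 with the row as a block, 0 with means per number and 0 to 3 without 1 sample; in mutant normal skin they were 2 with the row, 1 with only 2 groups, 3 for Mutant113 alone and 0 to 1 without 1 sample, and in hair loss against mutant normal skin 1 within Mutant097 and 0 to 1 without 1 sample.

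Probes called in mutant normal skin against wild type (209) were 134 with normexp, 128 with no filter, 84 above background on all arrays, 858 with the row, 0 with means per number, 989 for Mutant113 and 0 to 191 without 1 sample. Those in hair loss against wild type (429) were 185 with no filter, 1335 with the row, 0 with means per number, 715 with only 2 groups and 0 to 707 without 1 sample. In hair loss against mutant normal skin (0) they were 192 within Mutant097, 1 within Mutant113 and 0 to 11 without 1 sample. Between Mutant113 and Mutant097 (81) they were 467 with normexp, 146 with quantile normalization, 19 with no filter, 30 above background on all arrays and 6 to 64 without 1 sample. For the difference in lesion effect (0) they were 289, 3 and 4 with normexp, quantile normalization and detection on all arrays, and 0 to 25 without 1 sample. The cause of these shifts was not tested.

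Sign changes in hair loss against mutant normal skin were, for Bmp2, -0.0013 with normexp, -0.019 with quantile normalization, -0.38 within Mutant113 and -0.20 to 0.21 without 1 sample; for Bmp7, -0.0053 with the row and -0.11 to 0.40 without 1 sample; for Fgf7, 0.0020 within Mutant113; and for Fgf10, -0.50 to 0.66 without 1 sample. Bmp4 in mutant normal skin against wild type was 0.11 with normexp, 0.16 for Mutant097 and -0.29 to 0.26 without 1 sample. Bmp6 was -0.13 with normexp and -0.38 to 0.85 without 1 sample in that comparison, and 0.0097 with the row and -0.93 to 0.30 without 1 sample in hair loss against wild type, where Bmp7 was -0.48 to 0.023 without 1 sample. Of the pathway genes, in hair loss against mutant normal skin, Msx2 was -0.19 within Mutant113 and -0.21 to 1.25 without 1 sample, Fstl1 0.31 and -0.29 to 0.10, and Dusp6 -0.18 and -0.21 to 0.73; Bmp1 was -0.41 to 0.22 and Fgfr3 -0.28 to 0.0087 without 1 sample.

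Normexp, with its offset of 50, gave smaller measured Fgf5 differences from wild type (at background there). They were 1.31 in hair loss and 0.66 in mutant normal skin on the log2 scale, below the approximate bounds of 2.94 and 1.47 in the main setting. With the title number as a replicate block, hair loss against mutant normal skin had 0 probes called and Fgf18 at -1.70 (limma adjusted p 0.618), and no call changed. The block could not be fitted for wild type, which has 1 number. A sample left alone in its group was assumed to vary like the others. Bmp6, Fgf5 and Fgf10 were not above background on 1 to 3 arrays and Bambi on all 8, which limits their values.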

Other observations

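A few pathway genes, chosen after their values were seen, differed in hair loss replicate 1 (Mutant097) from the other samples. Noggin (Nog), a secreted BMP antagonist that promotes hair growth, was 1.51 in hair loss replicate 1, against -0.87 in hair loss replicate 2, -1.20 to -0.22 in mutant normal skin and 0.02 and -1.83 in the wild type. The Fgfr1 probe with the highest mean (A_55_P2057777) was 2.09 in hair loss replicate 1 and 4.37 to 4.94 on the other 7 arrays. The other 2 Fgfr1 probes were -0.41 and -0.999 in that sample, with ranges of -0.57 to 0.02 and -0.999 to 0.82 over all arrays, so the low value of the first probe was not matched in size by either. Within Mutant097 that Fgfr1 probe was -2.46 in hair loss against normal skin (limma adjusted p 0.027), and within Mutant113 -0.20. With 1 hair loss sample per title number, this is a difference of 1 array.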
